A study of Schizosaccharomyces pombe 972h- with 8 samples.

Results

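The ppk genes of Schizosaccharomyces pombe code for proteins named as a series of protein kinases, ppk followed by a number. Most of them have no other name. Whether each protein is an active kinase was not tested. The genes were taken by name alone: every gene of the deposited tables that carries a ppk name was kept, except the 1 that is also atg1. This left 33 genes of the 4854 with a value on both platforms. No single gene was picked by its measured values, but the set was chosen with earlier results of these data known. RNA came from wild-type strain 972 h- grown in yeast extract medium in 2 cultures started from independent single colonies. Each culture gave an H2O2 sample, taken 30 min after addition of 0.5 mM H2O2, and a control sample, taken just before it. Each RNA was hybridised to an Affymetrix tiling array (Sp_TMA) and to an Affymetrix expression array (Sp_EMA), so that each platform has 2 H2O2 arrays and 2 control arrays. The strain carries no transgene or deletion. There was no culture kept for 30 min without H2O2, so that the agent and the time after the control sample cannot be told apart.

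Protein kinases transfer phosphate to serine, threonine or tyrosine residues of other proteins and so switch them between states. In fission yeast the response to H2O2 runs through a cascade of protein kinases that ends at the MAP kinase Sty1, which acts on the transcription factor Atf1, while Pap1 is a second transcription factor that peroxide activates. The activity of a kinase is set largely by phosphorylation and by partner proteins, which arrays do not measure. The values here are RNA levels only.

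All 33 genes were found by systematic name in the RefSeq annotation of ASM294v3. The genes are spread over the genome, with 15 on chromosome I, 14 on chromosome II and 4 on chromosome III, and their proteins range from 312 residues (ppk11) to 1706 residues (ppk19, the vps15 gene). Several have a known role under another name: ppk28 is gcn2, ppk20 is ksp1, ppk10 is hal4, ppk4 is ire1, ppk5 is pom2, ppk23 is cdk11, ppk34 is ckk2 and ppk35 is slk1. Of the coding spans, 31 are overlapped by an annotated gene on the opposite strand and 2 (ppk2 and ppk13) are not. In 19 spans such genes cover at least 50% of the length. Most of these opposite-strand genes are annotated as non-coding RNA. The share of all genes with such an overlap was not computed. Target labelling kept the polarity of the RNA on Sp_TMA and was double-stranded on Sp_EMA. The part of antisense RNA in the values was not tested.

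The stretches before the transcription start of 4 genes are given because these genes head the lists of higher and lower members or carry a motif beside a large change. They are 300 bases long, from RefSeq (ASM294v3), read 5′ to 3′ on the strand of the gene and ending at the base before the annotated start. Capitals mark a match, on either strand, to any of 5 motifs: TGACGT (the core bound by Atf1), CCCCT (the stress motif known from budding yeast), TTACTAA (a Pap1-type site), ACGCGT (the MBF site) and GTAAACA (the forkhead site). The stretches lie at chrI:2584873-2585172 (forward strand) for ppk15, at chrII:1942352-1942651 (forward strand) for ksp1, at chrII:3989536-3989835 (reverse strand) for ppk25 and at chrI:1906755-1907054 (forward strand) for ppk1.
ppk15: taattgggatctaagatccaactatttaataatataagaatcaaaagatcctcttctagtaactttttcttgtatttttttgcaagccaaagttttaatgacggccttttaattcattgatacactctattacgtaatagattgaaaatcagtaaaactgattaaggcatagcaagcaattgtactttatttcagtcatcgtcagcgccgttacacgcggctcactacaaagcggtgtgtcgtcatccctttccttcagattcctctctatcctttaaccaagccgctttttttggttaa
ksp1: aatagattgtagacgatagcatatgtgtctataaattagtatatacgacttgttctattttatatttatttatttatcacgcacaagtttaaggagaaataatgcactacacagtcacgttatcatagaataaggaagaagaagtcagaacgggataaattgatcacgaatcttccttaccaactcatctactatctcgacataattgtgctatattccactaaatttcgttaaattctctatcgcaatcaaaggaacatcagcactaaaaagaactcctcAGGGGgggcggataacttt
ppk25: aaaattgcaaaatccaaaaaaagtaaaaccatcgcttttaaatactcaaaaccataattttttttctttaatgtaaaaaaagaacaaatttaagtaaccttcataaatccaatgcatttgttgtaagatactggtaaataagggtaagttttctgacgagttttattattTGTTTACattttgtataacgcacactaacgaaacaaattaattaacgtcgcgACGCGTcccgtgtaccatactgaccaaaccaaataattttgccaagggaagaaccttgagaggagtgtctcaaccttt
ppk1: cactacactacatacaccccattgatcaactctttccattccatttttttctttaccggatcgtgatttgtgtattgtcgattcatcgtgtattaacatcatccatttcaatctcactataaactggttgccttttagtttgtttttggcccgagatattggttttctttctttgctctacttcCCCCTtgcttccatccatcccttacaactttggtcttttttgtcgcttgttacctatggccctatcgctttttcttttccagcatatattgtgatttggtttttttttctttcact

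The stretch of ppk15 held none of the 5 motifs. That of ksp1 held the stress motif on the reverse strand at position -19, counted back from the transcription start. In ppk25 the MBF site stood at -78 and the forkhead letters at -130, and in ppk1 the stress motif stood at -116. Over the 33 genes, CCCCT was found before 7 (21.2%), against 10.0% of the 5112 promoters of the same length in the annotation. Of these 7, 5 were among the 11 genes lower on both platforms (ppk1, ppk3, ppk13, ppk16 and ppk18), 1 was among the 8 higher on both (ksp1), and ppk33 was in neither set. The forkhead letters were found before 8 of 33 genes (24.2%), against 17.0% of all promoters. Of these 8, 4 were lower on both platforms and 1 was higher on both. TTACTAA was found before 2 (ppk5 and ppk32, both lower on both platforms, 6.06%), against 12.7%. ACGCGT was found before ppk25 alone (3.03%), against 2.90% of all promoters. TGACGT was found before none of the 33 genes, against 6.03% of all promoters. These are matches of letters in a fixed window. Their shares among all genes lower or higher on both platforms were not computed, and a link with the direction of change was not tested.

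Genes known to rise with H2O2 were used to check the labels. All 8 of them rose on both platforms, among them the catalase gene ctt1 (3.19 on Sp_TMA and 2.99 on Sp_EMA, log2) and the phosphatase gene pyp2 (4.27 and 5.02). No depth is defined for arrays, and the number of arrays limits the precision. The medians of the arrays lay close together, at 10.3 (log2) on Sp_TMA and 11.1 on Sp_EMA. The 2 cultures differed little for the ppk genes. The median gap between cultures was 0.07 in H2O2 and 0.06 in control on Sp_TMA, and 0.06 in H2O2 and 0.09 in control on Sp_EMA (log2). The largest gaps were those of ppk3 in H2O2 on Sp_TMA (0.35) and in control on Sp_EMA (0.34).

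The comparison of H2O2 with control asks which kinase genes change in RNA level under oxidative stress, and changes are given as H2O2 minus control on the log2 scale. The ppk genes moved in both directions, with ppk15, ppk21, ppk8, gcn2 and ksp1 rising most on both platforms. The genes that fell most were ppk25, ppk3, ppk2, ppk32 and ppk1 on Sp_TMA and ppk25, ppk1, ppk2, ppk16 and ppk3 on Sp_EMA. On Sp_TMA 9 of 33 ppk genes rose and 12 fell at an adjusted p below 0.05 in limma, which fits each platform over all genes. Among all 4854 genes, 25.2% rose and 31.3% fell there, against 27.3% and 36.4% of the ppk genes. On Sp_EMA 10 rose and 13 fell, where 22.7% and 36.2% of all genes did so. On both platforms, in the same direction, 8 rose and 11 fell, where 19.8% and 27.0% of all genes did so. No ppk gene was called in opposite directions. Both platforms measured the same RNA, so that the second is not a further biological replicate. The shares of the ppk genes lie near those of all genes. In a whole culture, less of an RNA in each cell and fewer cells that hold it cannot be told apart.

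The median change of the 33 genes was -0.07 on Sp_TMA and -0.03 on Sp_EMA, against -0.05 and -0.07 over all genes. The median size of the change, whatever its sign, was 0.318 on Sp_TMA and 0.362 on Sp_EMA, against 0.311 and 0.265 over all genes. The H2O2 values and the control values did not overlap for 14 ppk genes that were higher and 16 that were lower on Sp_TMA, where this held for 35.5% and 44.7% of all genes. On Sp_EMA this held for 12 and 15 of them, where 31.4% and 51.2% of all genes met it. A change of at least 2-fold was reached upward by ppk15, ppk21 and ppk8 on both platforms, 3 of 33 genes, where 6.32% of all genes on Sp_TMA and 5.36% on Sp_EMA did so. Downward it was reached by ppk25 on Sp_TMA (4.18% of all genes) and by ppk25 and ppk1 on Sp_EMA (4.84%).

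**Figure D1:**
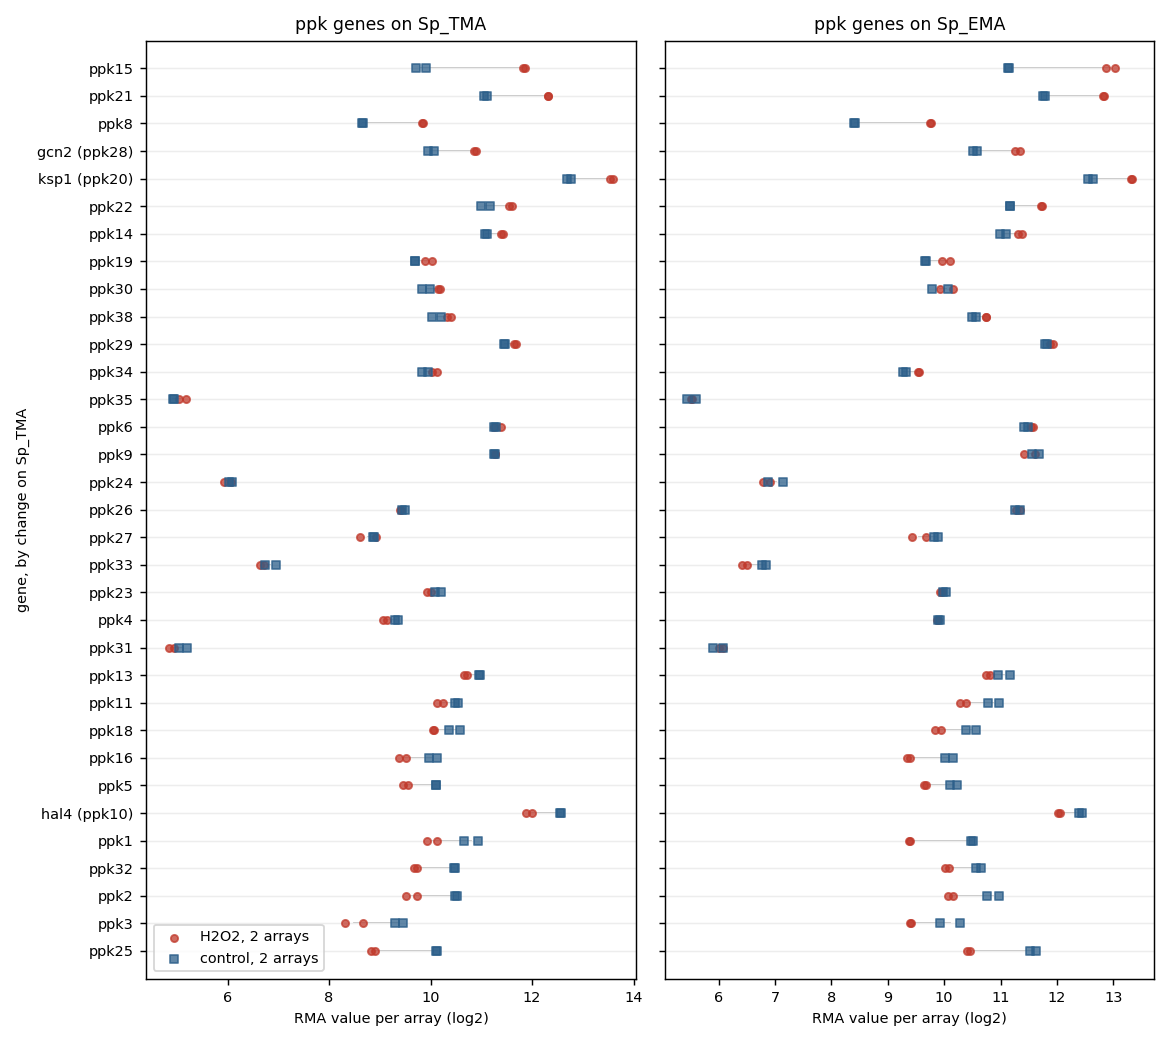
RMA value (log2) of each of the 33 ppk genes on every array, with Sp_TMA on the left and Sp_EMA on the right, red circles for the 2 H2O2 arrays and blue squares for the 2 control arrays. For ppk15, at the top, both red circles lie near 11.8 on Sp_TMA, to the right of both blue squares, and for ppk25, at the bottom, they lie to the left of them on both platforms.

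The DYRK family, dual-specificity kinases that act in growth control and cell polarity, holds 2 ppk genes, and they moved in opposite directions. ppk15, related to Yak1 of budding yeast, is a gene of chromosome I (2585173 to 2587474, forward strand) with 2 coding exons and a coding length of 1605 bp. On Sp_TMA it had 11.87 and 11.81 in H2O2, against 9.72 and 9.91 in control. On Sp_EMA it had 13.03 and 12.87 in H2O2, against 11.13 and 11.15 in control. Both H2O2 arrays stood well above both control arrays on each platform, and the gap between groups was many times that between cultures. The change was 2.03 (4.07-fold, standard error 0.09, adjusted p = 2.1e-05 from limma) on Sp_TMA and 1.80 (3.49-fold, standard error 0.07, adjusted p = 7.36e-05) on Sp_EMA. It was the largest change in either direction among the 33 genes on both platforms.

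The other gene of that family, ppk5, codes for Pom2 and also carries the name mug189. On Sp_TMA it had 9.45 and 9.55 in H2O2, against 10.11 and 10.10 in control, and on Sp_EMA 9.64 and 9.67 in H2O2, against 10.23 and 10.10 in control. All H2O2 values were below all control values. The gene fell, with a change of -0.61 (standard error 0.08, adjusted p = 0.00104) on Sp_TMA and -0.51 (standard error 0.07, adjusted p = 0.00198) on Sp_EMA. The proteins of ppk5 and ppk15 shared 45.3% of 351 aligned residues. pom1, the polarity kinase of the cell tips, is the closest of the other protein kinases to both ppk5 (38.2% of 693 residues) and ppk15 (42.8% of 374). It changed by -0.56 on both platforms, a fall like that of ppk5 and opposite to the rise of ppk15.

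Genes related to the AGC kinases, the class of protein kinase A and of PDK1, moved in both directions: ppk21, ppk22 and ppk14 rose on both platforms, ppk18 fell on both, and ppk31, ppk33 and ppk35 were called higher on neither. ppk21, annotated as Pdk1 on chromosome II (3114231 to 3116509, reverse strand), had 12.31 and 12.32 in H2O2, against 11.06 and 11.12 in control, on Sp_TMA. On Sp_EMA it had 12.84 and 12.81 in H2O2, against 11.78 and 11.76 in control. Its groups were separated on both platforms, with gaps between cultures under 0.1. The change was 1.22 (2.33-fold, standard error 0.07, adjusted p = 6.1e-05) on Sp_TMA and 1.06 (2.08-fold, standard error 0.05, adjusted p = 0.000111) on Sp_EMA. ksg1, the PDK1 homologue that is its closest relative here (39.2% of 467 residues), had a change of -0.19 (adjusted p = 0.0697) on Sp_TMA and fell on Sp_EMA with a change of -0.44 (adjusted p = 0.00119).

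ppk22 and ppk14 are the closest pair among the 33 proteins, with 54.1% of 495 aligned residues in common, and both rose. The change of ppk22 was 0.50 (adjusted p = 0.00439) on Sp_TMA and 0.57 (adjusted p = 0.000519) on Sp_EMA, and that of ppk14 was 0.32 (adjusted p = 0.0118) and 0.30 (adjusted p = 0.0103). The call of ppk14 was lost on Sp_TMA without either control array (adjusted p = 0.0752 without array 1 and 0.0509 without array 2) and on Sp_EMA without H2O2 array 2 (0.0741). Their closest relatives outside the ppk genes are sck1 and gad8, kinases of nutrient and TOR signalling. gad8 changed by 0.55 and 0.58 and sck1 by 0.52 and 0.27. ppk18, which with cek1 belongs to the Greatwall family (Rim15 in budding yeast), fell, with changes of -0.41 (adjusted p = 0.0116) and -0.58 (adjusted p = 0.00229), and lost its call on Sp_TMA without either H2O2 array or control array 1 (adjusted p from 0.0512 to 0.0713). ppk31, a relative of both, changed by -0.24 (adjusted p = 0.0654) and 0.05 (adjusted p = 0.602). ppk35, the meiotic kinase Slk1 with its closest relative in sid2, changed by 0.19 and -0.01 and passed the threshold on neither. ppk33 passed it on Sp_EMA, with a change of -0.35 (adjusted p = 0.00521), while its change on Sp_TMA was -0.16 (adjusted p = 0.2). ppk31, ppk33 and ppk35 are among the dimmest 25% of genes on both platforms, with every value of ppk31 and ppk35 at or below 6.07.

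Gcn2 phosphorylates the translation factor eIF2 alpha under amino acid starvation and other stresses, and its gene rose. gcn2 (ppk28, chromosome II, 2396432 to 2401552, forward strand) had 10.90 and 10.85 in H2O2, against 10.07 and 9.95 in control, on Sp_TMA. Its values on Sp_EMA were 11.35 and 11.25 in H2O2, against 10.59 and 10.52 in control. The groups did not overlap on either platform. The change was 0.86 (1.82-fold, standard error 0.08, adjusted p = 0.000329) on Sp_TMA and 0.75 (1.68-fold, standard error 0.06, adjusted p = 0.000456) on Sp_EMA. The eIF2 alpha kinase hri2, its closest relative outside the ppk genes (33.4% of 458 residues), changed by 1.10 and 0.92. Ire1 senses unfolded proteins in the endoplasmic reticulum. Its gene, ppk4, fell on Sp_TMA with a change of -0.23 (adjusted p = 0.0485), close to the threshold, and had a change of -0.03 (adjusted p = 0.624) on Sp_EMA. The call of ppk4 was lost with the culture as a block (adjusted p = 0.110), with an intensity trend (0.0575), after a further quantile normalization (0.121) and without any one of the 4 arrays (adjusted p from 0.0643 to 0.217).

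ksp1 (ppk20, chromosome II, 1942652 to 1944908, forward strand) has a namesake in budding yeast that acts in nutrient signalling. It had 13.60 and 13.54 in H2O2, against 12.69 and 12.77 in control, on Sp_TMA, and 13.34 and 13.32 in H2O2, against 12.55 and 12.64 in control, on Sp_EMA. Every H2O2 value was higher than every control value. The change was 0.84 (1.79-fold, standard error 0.08, adjusted p = 0.000287) on Sp_TMA and 0.73 (1.66-fold, standard error 0.06, adjusted p = 0.000365) on Sp_EMA. ran1, a kinase that holds back meiosis and is the closest of the other protein kinases (33.2% of 367 residues), changed by 0.99 and 0.94.

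Hal4, named for its part in salt tolerance and potassium uptake, and Ppk8 are relatives whose genes moved in opposite directions. ppk8 (chromosome I, 749482 to 751846, forward strand) had 9.85 and 9.84 in H2O2, against 8.68 and 8.65 in control, on Sp_TMA. On Sp_EMA it had 9.75 and 9.76 in H2O2, against 8.40 and 8.43 in control. Cultures agreed within 0.1 in both groups, and the groups stood apart. The gene is among the dimmest 25% of genes on Sp_EMA, but not on Sp_TMA. The change was 1.18 (2.27-fold, standard error 0.07, adjusted p = 6.42e-05) on Sp_TMA and 1.34 (2.54-fold, standard error 0.05, adjusted p = 6.62e-05) on Sp_EMA. oca2, its closest relative (40.4% of 369 residues), had the largest rise of the other protein kinases on both platforms, 3.67 and 3.64. hal4 (ppk10) fell, with a change of -0.63 (standard error 0.08, adjusted p = 0.000978) on Sp_TMA and -0.38 (standard error 0.05, adjusted p = 0.00235) on Sp_EMA. ppk24, for which hal4 is the closest ppk relative, changed by -0.06 and -0.17 and passed the threshold on neither platform. ppk24 is among the dimmest 25% of genes on both platforms.

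**Figure D2:**
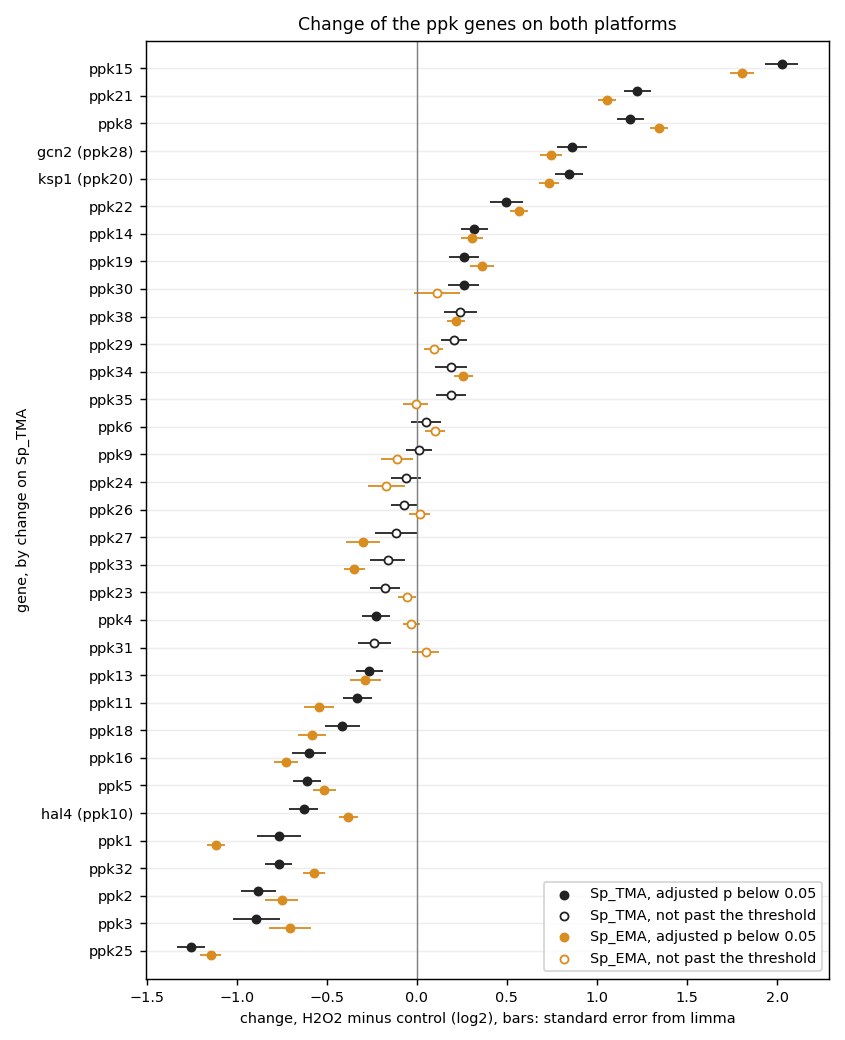
Change of each ppk gene (H2O2 minus control, log2) on Sp_TMA in black and on Sp_EMA in orange, ordered by the change on Sp_TMA, with bars for the standard error from limma and filled points for an adjusted p below 0.05. The genes at the top and at the bottom are filled on both platforms on the same side of 0, and open points lie in the middle.

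Genes related to the AMPK and Kin1 kinases, which act in energy balance and in cell polarity, were among those that fell most. ppk25 (chromosome II, 3987522 to 3989535, reverse strand) had 8.84 and 8.90 in H2O2, against 10.11 and 10.13 in control, on Sp_TMA. On Sp_EMA it had 10.40 and 10.46 in H2O2, against 11.53 and 11.62 in control. All H2O2 values lay more than 1 below all control values of the same platform. The gene fell, with a change of -1.25 (2.39-fold lower, standard error 0.08, adjusted p = 5.79e-05) on Sp_TMA and -1.14 (2.21-fold lower, standard error 0.06, adjusted p = 0.00013) on Sp_EMA. Its closest relative is the polarity kinase kin1 (54.7% of 258 residues), which rose by 0.94 on Sp_TMA and 1.04 on Sp_EMA.

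ppk1 (chromosome I, 1907055 to 1911747, forward strand) had 9.93 and 10.12 in H2O2, against 10.94 and 10.65 in control, on Sp_TMA. Its values on Sp_EMA were 9.39 and 9.37 in H2O2, against 10.52 and 10.47 in control. The cultures were farther apart on Sp_TMA than on Sp_EMA, in both groups, and the groups overlapped on neither. ppk1 fell, with a change of -0.77 (1.70-fold lower, standard error 0.12, adjusted p = 0.00246) on Sp_TMA and -1.11 (2.16-fold lower, standard error 0.05, adjusted p = 0.000105) on Sp_EMA. ssp2, the catalytic subunit of AMPK and its closest relative (41.7% of 288 residues), rose by 0.39 and 0.42. ppk16 (mug92) had 9.38 and 9.51 in H2O2, against 10.13 and 9.97 in control, on Sp_TMA, and 9.40 and 9.33 in H2O2, against 10.16 and 10.02 in control, on Sp_EMA. Both H2O2 arrays were below both control arrays on each platform. The gene fell, with a change of -0.60 (standard error 0.09, adjusted p = 0.0023) on Sp_TMA and -0.73 (standard error 0.07, adjusted p = 0.000715) on Sp_EMA.

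The rest of the genes with ssp2 as the closest of the other kinases moved less. ppk9 changed by 0.01 on Sp_TMA (95% interval -0.16 to 0.19) and by -0.11 on Sp_EMA (-0.34 to 0.12), and ppk6 by 0.05 (-0.15 to 0.26) and 0.10 (-0.04 to 0.24). ppk27 fell on Sp_EMA with a change of -0.30 (adjusted p = 0.0428), and had a change of -0.12 (adjusted p = 0.429) on Sp_TMA, where its 2 H2O2 arrays read 8.61 and 8.92. Its call on Sp_EMA was lost without H2O2 array 1 or either control array (adjusted p from 0.0753 to 0.148) and after a further quantile normalization (0.151). The gene is among the dimmest 25% on both platforms. ckk2 (ppk34), annotated as a kinase of calmodulin-dependent kinases, rose on Sp_EMA by 0.26 (adjusted p = 0.00985), where the call was lost without either H2O2 array (adjusted p = 0.0691 without array 1 and 0.0563 without array 2), and had a change of 0.19 (adjusted p = 0.107) on Sp_TMA.

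A further set of genes that fell has no relative at 40% identity among the kinases compared. This does not set them apart. It also holds for ppk16 and hal4, which fell, and for ppk21, gcn2 and ksp1, which rose. ppk3, annotated as a kinase domain protein with HEAT repeats, had 8.32 and 8.67 in H2O2, against 9.46 and 9.30 in control, on Sp_TMA, and 9.41 and 9.39 in H2O2, against 10.27 and 9.93 in control, on Sp_EMA. Its cultures were the farthest apart of the ppk genes in H2O2 on Sp_TMA and in control on Sp_EMA, and its groups still did not overlap. The gene is among the dimmest 25% on both platforms. It fell, with a change of -0.89 (1.85-fold lower, standard error 0.13, adjusted p = 0.00175) on Sp_TMA and -0.70 (1.63-fold lower, standard error 0.12, adjusted p = 0.00509) on Sp_EMA. ppk2, listed as tea5 in the RefSeq annotation, had 9.51 and 9.73 in H2O2, against 10.51 and 10.49 in control, on Sp_TMA. Its values on Sp_EMA were 10.17 and 10.06 in H2O2, against 10.97 and 10.76 in control. Its values in H2O2 were below those in control on every array, and no annotated gene overlaps its coding span on the other strand. ppk2 fell, with a change of -0.88 (1.84-fold lower, standard error 0.10, adjusted p = 0.000556) on Sp_TMA and -0.75 (1.68-fold lower, standard error 0.09, adjusted p = 0.00156) on Sp_EMA. ppk32 had 9.67 and 9.74 in H2O2, against 10.48 and 10.46 in control, on Sp_TMA, and 10.09 and 10.01 in H2O2, against 10.66 and 10.57 in control, on Sp_EMA. Here too the groups were separate on both platforms, and the gene fell, with a change of -0.77 (standard error 0.08, adjusted p = 0.000364) on Sp_TMA and -0.57 (standard error 0.06, adjusted p = 0.00112) on Sp_EMA.

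ppk11, a PAK-like kinase, fell, with changes of -0.33 (adjusted p = 0.0136) on Sp_TMA and -0.54 (adjusted p = 0.00395) on Sp_EMA, and its closest relative, the septation kinase sid1 (47.1% of 306 residues), changed by -1.34 and -1.42. ppk13 fell too, with changes of -0.26 (adjusted p = 0.0248) and -0.29 (adjusted p = 0.0359). On Sp_TMA the call of ppk11 was lost without H2O2 array 1 or either control array (adjusted p from 0.0524 to 0.0818). That of ppk13 was lost there with the culture as a block (adjusted p = 0.0572) and without H2O2 array 2 or either control array (0.0800 to 0.112), and on Sp_EMA without either H2O2 array or control array 2 (0.0846 to 0.170).

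ppk29, ppk30 and ppk38 belong to the Ark1/Prk1 family, which acts on actin patches and endocytosis in budding yeast. ppk30 rose on Sp_TMA with a change of 0.26 (adjusted p = 0.0431), and had 0.11 (adjusted p = 0.483) on Sp_EMA. ppk38 rose on Sp_EMA with a change of 0.22 (adjusted p = 0.0167), and had 0.24 (adjusted p = 0.0614) on Sp_TMA, and for ppk29 the changes were 0.21 (adjusted p = 0.0519) on Sp_TMA and 0.09 (adjusted p = 0.183) on Sp_EMA. All 6 estimates were above 0 and all were small, and each gene stood on either side of the threshold, depending on the setting or the platform. The call of ppk30 was lost with the culture as a block (adjusted p = 0.0635) and without any one of the 4 Sp_TMA arrays (0.0528 to 0.234). That of ppk38 on Sp_EMA was lost without either H2O2 array or control array 2 (adjusted p from 0.0565 to 0.0918), and ppk29 passed the threshold on Sp_TMA with an intensity trend in the fit (adjusted p = 0.0332). With the dimmest 25% of genes left out, ppk29 (adjusted p = 0.0393) and ppk38 (0.0423) both passed it on Sp_TMA.

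Of the remaining genes, ppk19 codes for Vps15, the partner of the phosphatidylinositol 3-kinase Vps34 in vesicle transport and autophagy. It rose by 0.26 (adjusted p = 0.0371) on Sp_TMA and 0.36 (adjusted p = 0.00728) on Sp_EMA, and the call on Sp_TMA was lost with the culture as a block (adjusted p = 0.0613) and without H2O2 array 2 or either control array (0.127 to 0.135). ppk23, which codes for Cdk11, the partner of cyclin L, changed by -0.17 (95% interval -0.38 to 0.03) and -0.06 (-0.19 to 0.07). ppk26, annotated as a subunit of the PAN complex that shortens poly(A) tails, changed by -0.07 (-0.25 to 0.11) and 0.02 (-0.14 to 0.17). For these 2 genes the intervals reach no farther than 0.38 from 0 on either platform.

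The mug names come from a screen of genes upregulated in meiosis. Of the 33 genes, 4 carry such a name: ppk5 and ppk16 fell on both platforms, as given above, and ppk31 and ppk35 passed the threshold on neither.

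**Figure D3:**
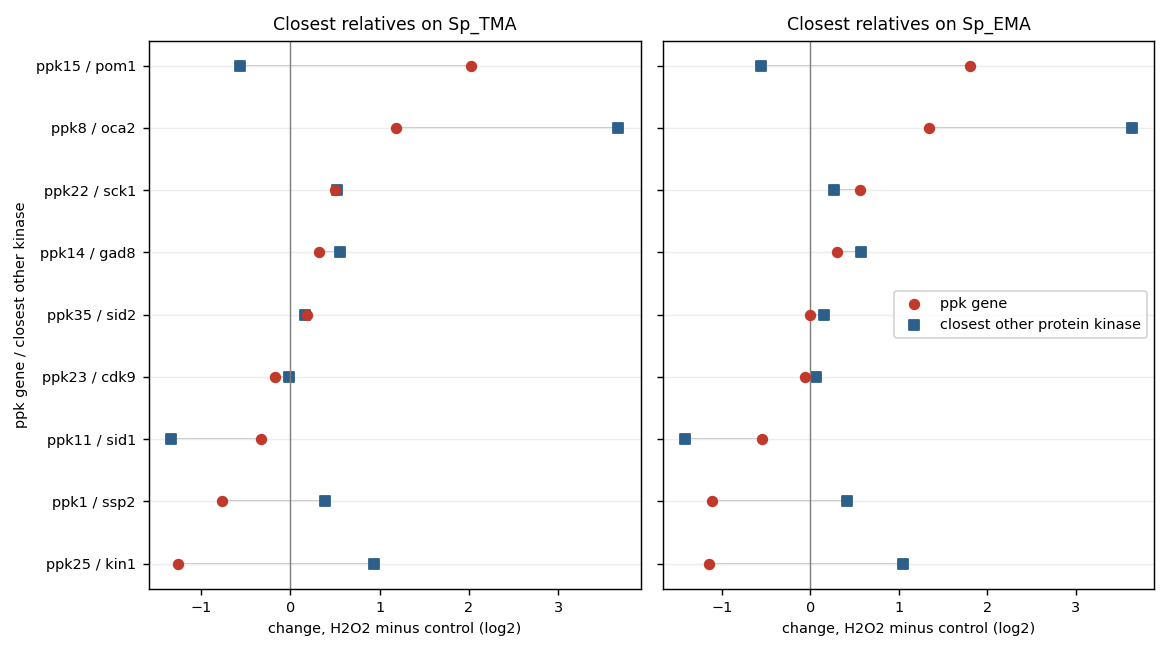
Change (H2O2 minus control, log2) of 9 ppk genes (red circles) beside that of the closest other protein kinase (blue squares), with Sp_TMA on the left and Sp_EMA on the right, for pairs with at least 40% identity over at least 200 aligned residues. The pairs of ppk15, ppk1 and ppk25 lie on opposite sides of 0 on both platforms, and those of ppk8, ppk22, ppk14 and ppk11 lie on the same side.

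Pairs close in sequence moved together in some cases and apart in others. Among pairs of ppk genes, 4 had at least 40% identity over at least 200 aligned residues: ppk14 with ppk22, ppk30 with ppk38 (47.0% of 494 residues), ppk29 with ppk38 (44.4% of 450) and ppk5 with ppk15. In the first of these both genes rose on both platforms, and in the last they were called in opposite directions on both. This describes 4 pairs and has no test.

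The same 2 groups of arrays were used to set the ppk genes beside 76 other protein kinase genes of fission yeast. Of these, 23 rose and 27 fell on Sp_TMA, 24 rose and 31 fell on Sp_EMA, and 20 rose and 26 fell on both, shares of 26.3% and 34.2% for the last, against 24.2% and 33.3% of the ppk genes. The median size of the change was 0.318 on Sp_TMA and 0.362 on Sp_EMA for the ppk genes, against 0.432 and 0.426 for the other kinases. The ppk genes spanned -1.25 to 2.03 on Sp_TMA and the other kinases -2.09 to 3.67. With oca2, the other kinases that rose most there were srk1, a kinase downstream of Sty1 (2.85 and 3.37), and pka1, the catalytic subunit of protein kinase A (2.12 and 1.97). Those that fell most, by the change on Sp_TMA, were ark1, the Aurora kinase (-2.09 and -2.85), lkh1 (-1.81 and -1.54) and hsk1, the kinase that starts DNA replication (-1.46 and -1.71). The list of other kinases was written from general knowledge. It includes atg1, which also carries the name ppk36. Whether the lists differ was not tested.

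**Figure D4:**
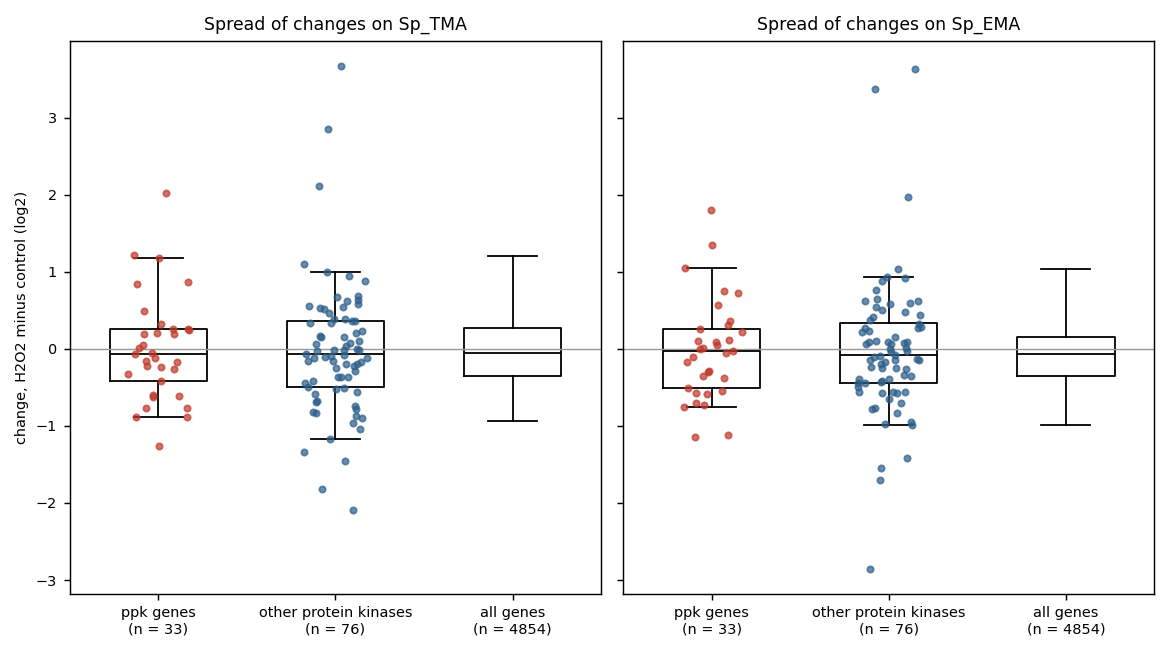
Change of single genes (H2O2 minus control, log2) on Sp_TMA, left, and Sp_EMA, right, for the 33 ppk genes, the 76 other protein kinases and all 4854 genes (box alone). Boxes show the quartiles and the median, and whiskers the span from the 5th to the 95th percentile. The 3 medians lie between -0.09 and 0 on both platforms.

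A last comparison asks whether the platforms gave different changes for the same RNA, with Sp_TMA minus Sp_EMA as the direction, in a limma fit on all 8 arrays. No ppk gene passed the threshold (0 of 33, lowest adjusted p = 0.181), where 1.94% of all genes did so. The culture as a block leaves 2 values per gene, 1 for each replicate number. With it, again 0 of 33 passed (lowest adjusted p = 0.0514, for ppk1), where 13.7% of all genes did so. At an unadjusted p below 0.05 there were 3 of 33 ppk genes (ppk1, hal4 and ppk31), where 19.9% of all genes passed, and 4 with the block, where 28.3% did so. The largest difference upward was that of ppk1, 0.35 (95% interval 0.02 to 0.68), and the largest downward that of ppk31, -0.29 (-0.56 to -0.01). For hal4 it was -0.25 (-0.46 to -0.04) and for ppk15, which changed most, 0.22 (-0.05 to 0.49). With arrays paired by replicate number, both pairs moved the same way for 32 of 33 ppk genes on Sp_TMA, where 84.3% of all genes did so, and for 30 of 33 on Sp_EMA, where 88.4% did so.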

How the data were processed

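RNA of S. pombe in H2O2 and in control was measured on 4 Sp_TMA arrays and 4 Sp_EMA arrays. The authors filtered the probes, assigned them to genes with custom chip description files built on the genome annotation of the time, and made 1 log2 value per gene and array with RMA, which corrects background, makes the arrays of a platform share 1 distribution and sums up the probes of a gene. These deposited log2 values were used as they stand. No version of RMA is given in the sources used here. Because values were normalized on each platform separately, levels were not compared between platforms, and between genes only to find the dimmest 25% of each platform.

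Each platform was fitted alone with limma 3.58.1 under R 4.3.3 (moderated statistics from lmFit and eBayes for H2O2 minus control over 4854 genes, no block, two-sided, Benjamini-Hochberg adjusted p below 0.05, n = 2 per group). The difference between platforms was a contrast in 1 fit of all 8 arrays. It took the arrays as independent, although both platforms measured the same RNA. The fit of a single platform has 2 residual degrees of freedom per gene and leans on the variance shared between genes. The culture as a block was an alternative. For the difference between platforms it was a fit on 2 values per gene, 1 for each replicate number. The block assumes that a replicate number stands for 1 culture in both groups. By the methods every culture gave both a control and an H2O2 sample, but no label ties the numbers to cultures across groups, and deviations of same-numbered arrays correlated at -0.0585 on Sp_TMA and 0.253 on Sp_EMA. The fits were tested on simulated data.

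Gene positions and sequences came from RefSeq (ASM294v3), whose annotation is later than that of the authors. Proteins were translated from the annotated coding sequences and aligned locally with Biopython 1.88 (BLOSUM62), with identity counted over aligned residues without gaps. Of 80 names of other protein kinases listed, 2 are members, 1 was not matched, and the rest matched 76 genes. Values of every array are printed for members past the threshold on both platforms in the same direction whose smaller change is at least 0.5. Kinases that are no member are named where they are the closest relative of a member or, with the 3 largest changes in each direction, as examples. A planned motif and the sequence before a further member are not reported here. The members and lists were chosen with earlier results of these data known. Python 3.11.15 with matplotlib 3.10.9, numpy 2.4.6 and pandas 2.3.3 served for tables and plots.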

Additional observations from a re-analysis of the deposited data

How the results depend on the processing

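Under the alternatives run, no ppk gene changed direction while called. The 12 genes whose arrays are given one by one, and hal4 and ppk22, kept their calls under the block, the intensity trend, both rescalings and each left-out array. The 12 genes were chosen by their calls and changes in these same arrays, so that kept calls are not an independent check. The counts that follow are of ppk genes called on 1 platform or on both. The shares of all genes called at these settings were not computed. Requiring a change of at least 0.5 left 5 higher and 8 lower on Sp_TMA, 6 and 9 on Sp_EMA, and 5 and 7 on both. Leaving out the dimmest 25% of genes keeps 27 ppk genes on Sp_TMA and 21 on Sp_EMA. It gave 11 lower and 11 higher on Sp_TMA, where ppk29 and ppk38 gained calls. On Sp_EMA it left 8 lower and 7 higher. The genes among the dimmest 25% on Sp_EMA alone are ppk4, ppk5, ppk8, ppk16, ppk19 and ppk34. An adjusted p below 0.01 left 6 higher and 8 lower on Sp_TMA, 8 and 11 on Sp_EMA, and 6 and 8 on both. Leaving out 1 array gave 6 to 8 higher and 8 to 9 lower on Sp_TMA, 7 to 10 higher and 11 to 13 lower on Sp_EMA, and 6 to 8 higher and 8 to 9 lower on both. Over the ppk genes of both platforms, 34 single calls were lost and 1 was gained (ppk24, lower on Sp_EMA without control array 1, -0.30). The cause was not tested. With the culture as a replicate block there were 7 higher and 10 lower on Sp_TMA, 10 and 13 on Sp_EMA, and 7 and 10 on both, with 0 called for a difference between platforms. The block ended the calls of ppk4, ppk13, ppk19 and ppk30 on Sp_TMA and changed no other call. A fit on every gene of each platform's own table was not run as a separate fit, since both tables hold the same 4854 genes.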
